A study of Homo sapiens with 24 samples.

Results

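Over an 8 h chase the median gene kept 55.2% of its signal in cells given back intact QKI7 and 55.9% in cells given back QKI7 without its KH domain, and no gene's loss differed past the threshold between them. The quantity described is a decay difference: the log2 change from 0 h to 8 h in QKI7-WT minus the log2 change from 0 h to 8 h in QKI7-dKH. A negative value means more loss with intact QKI7, and a positive value less loss. It rests on 8 of the series' 24 libraries, 2 in each of 4 groups, and was computed for all 12547 endogenous genes of a table with 12585 rows.

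The cells were U2OS, a human osteosarcoma line, and polyA RNA was profiled. Each of the 4 groups carried a QKI guide (sgQKI) together with an add-back construct, either QKI7-WT or QKI7-△KH, written QKI7-dKH here. The chase combined actinomycin D at 5 µg/mL, which blocks transcription, with sodium arsenite at 200 µM, an oxidative stressor, for 0 h or 8 h. The libraries at 4 h, and those of the empty-vector genotypes sgNS+EV (non-targeting by its name) and sgQKI+EV, entered the fit and are cited where a result needs them. Whether a genotype was 1 clone or a pool, what drove the add-back, and whether same-group libraries came from separate cultures was not given in the sources at hand, so p-values measure only the spread between these libraries.

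QKI is an RNA-binding protein of the STAR family. Its KH domain, with the flanking QUA2 region, contacts RNA at the QKI response element, whose core is ACUAAC or ACUAAU, and its isoforms differ in the C-terminal tail. QKI is known for roles in splicing, in the stability of mRNAs that carry the element in the 3′ UTR, and in myelinating glia. QKI7, a largely cytoplasmic isoform, has been linked to mRNAs with internal m7G marks and to stress granules. The contrast between QKI7-WT and QKI7-dKH asks which transcripts decay differently when the add-back can bind RNA through that domain.

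Sites are shown for some of the described mRNAs that hold an element: QKI itself, 3 mRNAs with a published link to QKI (CDKN1B, NUMB and CTNNB1), and 3 with an unadjusted p under 0.05 (HSPA5, IFIT3 and CYR61). Other described mRNAs held elements too, among them G3BP1, WWTR1, MOB1B and RPL35A. PILRB, SLC25A20, DNAL4 and TMSB15B, also described below for their small p, held 0 elements in the transcript used. So did GADD45B, DNAJB1, ATF4, COL1A1 and IFITM1, whose unadjusted p was under 0.05 as well. Each site shown is the first element in the 3′ UTR of 1 annotated transcript in GENCODE 29 on GRCh38, read as RNA from 5′ to 3′ with 12 bases on either side, and the capitals mark the element. The QKI site lies at chr6:163573784-163573813 on the plus strand, the CDKN1B site at chr12:12722118-12722147 (plus) and the NUMB site at chr14:73276459-73276488 (minus). The CTNNB1 site lies at chr3:41239738-41239767 (plus), the HSPA5 site at chr9:125235819-125235848 (minus), the IFIT3 site at chr10:89340629-89340658 (plus) and the CYR61 site at chr1:85583215-85583244 (plus).
QKI: uaauaccaaccuACUAACucuggacuuugu
CDKN1B: cugaaaaauuauACUAACuuauuuauguua
NUMB: aguacucuuuucACUAAUcccaaagguccc
CTNNB1: agugccugacacACUAACcaagcugaguuu
HSPA5: uuuaaaauuauuACUAAUgaugcuuuuaua
IFIT3: gaaggucuuacaACUAAUcacugguagcaa
CYR61: gugcggauggacACUAAUgcagccacgauu

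Library quality touched these values as follows. The deposited values are a linear signal that the authors had scaled to ERCC spike-in RNA. The ERCC rows summed to 11485 to 11940 in each library, read counts are not in the table, and depth is therefore unknown. Replicate libraries correlated with Pearson r from 0.9889 to 0.9982 across genes, which are not independent replicates, and the lowest r was that of QKI7-WT at 4 h, a group outside the 8 h contrast. Of 7 mesenchymal markers 6 were measured (VIM, COL1A1, SPARC, FN1, CDH2 and CDH11), summing to 3798 to 6239 per library. Of the osteoblast-lineage markers RUNX2 and SPP1 had rows, and SP7, ALPL, BGLAP and IBSP had none. None of 5 blood markers (PTPRC, CD3E, LYZ, TYROBP and HBB) and 3 endothelial markers had a row. Of 4 epithelial markers EPCAM and KRT14 did, summing to 5.212 to 15.99, and of a wider blood list 2 members did, with decay differences of −0.22 and 0.20.

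Most genes fell over the chase in both add-back genotypes. In QKI7-WT 11296 genes fell from 0 h to 8 h (90.0% of those tested) and 55 rose (0.438%), 90.5% in all, with a median log2 change of −0.77. In QKI7-dKH 11371 fell (90.6%) and 61 rose (0.486%), 91.1% in all, and the median was again −0.77. The median gene kept 55.2% of its 0 h signal at 8 h in QKI7-WT and 55.9% in QKI7-dKH. With empty vector it kept 58.5% in sgNS+EV cells and 53.3% in sgQKI+EV cells.

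No gene was called in the decay difference (0 of 12547, 0%), in either direction, and every adjusted p in limma rounded to 1. Without adjustment 120 genes (0.956%) had p under 0.05, 61 of them higher in QKI7-WT (0.486%) and 59 lower (0.470%). With library totals, where the all-gene median was −0.0503, the higher and lower numbers were 45 and 274. They leaned the other way with quantile normalisation (208 and 150) and with library medians (153 and 100). Calibrated p-values would put a share of 0.05 of genes under 0.05 if no gene differed. The p-values of this contrast were thus larger than that, and the reason was not tested. The median over all genes was 0.00176, and values relative to it are lower than those printed by that amount. From the 5th to the 95th percentile, genes ran from −0.207 to 0.191. Estimates beyond 1.5-fold numbered 71 and beyond 2-fold 5: SNORA109 at 2.21, MAFA-AS1 at −1.21, RNU2-1 at −1.12, SNORD17 at −1.09 and YTHDF3-AS1 at −1.05.

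The precision bounds what could have been seen. The median SE of a decay difference was 0.15, and the median 95% interval reached 0.313 to either side of the estimate. That interval lay inside a 2-fold difference for 12336 genes (98.3%) and inside ±0.5 log2 for 8963 (71.4%). For these genes a difference beyond the stated size lay outside the interval. No minimum detectable difference follows from this, since some differences under 0.5 log2 passed in other contrasts of the same fit.

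**Figure D1:**
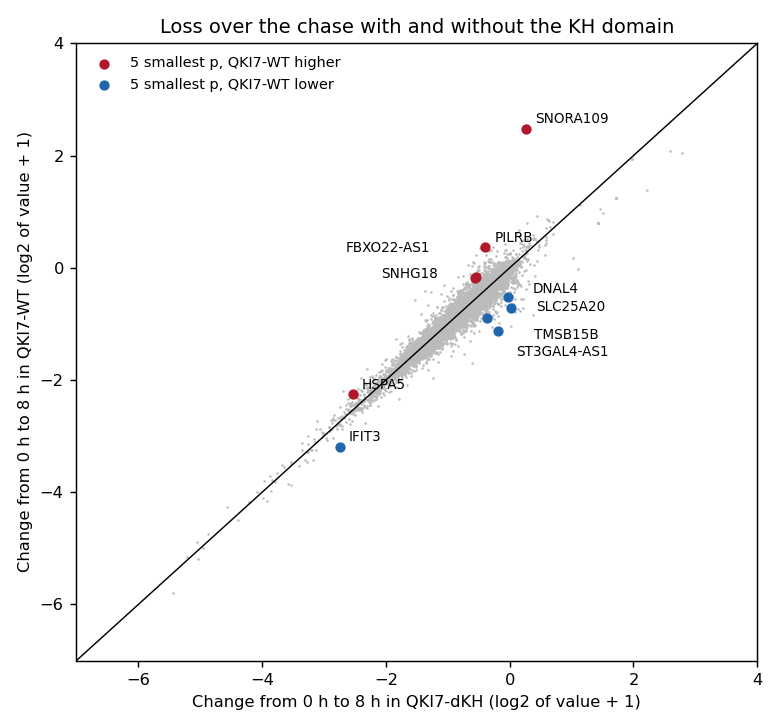
Log2 change from 0 h to 8 h in QKI7-dKH (x axis) and in QKI7-WT (y axis), 1 grey point per gene, with the line of equal change. The 10 genes with the smallest unadjusted p and a mean signal of at least 5 are coloured and named; none passed after adjustment, and the gene cloud follows the line.

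QKI's own row did not separate the genotypes. The QKI7-WT libraries gave 60.43 and 46.28 at 0 h and 18.7 and 17.97 at 8 h. The QKI7-dKH libraries gave 47.55 and 50.17 at 0 h and 17.83 and 19.05 at 8 h. The groups overlapped at both times. The decay difference was −0.12 (SE 0.20, 95% interval −0.545 to 0.305, limma adjusted p = 1). One row holds the reads of the endogenous gene and of the construct together, so it checks neither.

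At 4 h the same row differed between the genotypes. QKI7-WT gave 50.53 and 32.8 and QKI7-dKH 24.75 and 22.6, so QKI signal had dropped less by then in QKI7-WT (0.65 log2 over 0 h to 4 h, limma adjusted p = 0.0407) and dropped more from 4 h to 8 h (−0.77, adjusted p = 0.0289). Both values share the 4 h libraries, whose QKI7-WT replicates differed from each other in this row too, and most genes moved the same way in these intervals, as given further down.

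The mRNAs for the m7G methyltransferase and for the stress granule nucleator gave differences near 0. METTL1, the catalytic subunit, gave 0.03 (SE 0.19), WDR4, its partner, 0.02 (SE 0.17), and G3BP1 0.02 (SE 0.10, 95% interval −0.184 to 0.219). These 3 signs were not stable. With library totals all 3 turned negative, but the all-gene median was then −0.0503, and each still lay above it. METTL1 fell below the all-gene median of the fit without QKI7-dKH 0 h replicate 1 (−0.173, median −0.0499). WDR4 did so without QKI7-WT 0 h replicate 1 (−0.141, median −0.0301), and G3BP1 with quantile normalisation (−0.0855, median −0.00178). G3BP1 fell in both genotypes, from 361.6 and 356.6 to 203 and 189.5 in QKI7-WT and from 422.4 and 405.6 to 217.6 and 229.3 in QKI7-dKH. Among 21 m7G methyltransferase and cap-binding genes no member had an unadjusted p under 0.05, and the farthest were DCPS, the scavenger decapping enzyme, at 0.14 and EIF4E3, a cap-binding protein, at −0.13. Among 47 stress granule proteins, likewise with none, the farthest were the RNA helicase DDX3X at 0.13 and G3BP2 at −0.13.

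No mRNA with a published link to QKI passed in the 0 h to 8 h decay difference. CDKN1B, the cell cycle inhibitor p27, was among the fastest to be lost. Its signal went from 60.9 and 48.07 to 2.683 and 3.271 in QKI7-WT. In QKI7-dKH it went from 57.81 and 58.45 to 2.472 and 3.136. The 8 h values of the groups overlapped, and 5.46% and 4.82% of the 0 h signal was left. The decay difference was 0.17 (SE 0.20, 95% interval −0.255 to 0.589).

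NUMB, an inhibitor of Notch signalling, had the largest value of the published list. It went from 70.84 and 76.25 to 47.28 and 43.56 in QKI7-WT and from 92.27 and 84.98 to 46.37 and 49.53 in QKI7-dKH. The groups were apart at 0 h and overlapped at 8 h, and the decay difference was 0.19 (SE 0.11). CTNNB1, the β-catenin gene of Wnt signalling, gave 0.08 (SE 0.11). Of 13 measured members 8 lay above the all-gene median, none had an unadjusted p under 0.05, and they ran from −0.12 to 0.19 with a median of 0.03.

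Next come the 5 genes per direction with the smallest p, given as values since none passed. They were taken among genes with a mean signal of at least 5 over the 8 libraries.

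HSPA5 encodes BiP, the main chaperone of the endoplasmic reticulum. It went from 331.6 and 370.7 at 0 h to 74.53 and 71.43 at 8 h in QKI7-WT and from 442.9 and 417 to 71.68 and 74.8 in QKI7-dKH. QKI7-dKH was the higher at 0 h in both libraries, and the groups overlapped at 8 h. The decay difference was 0.29 (SE 0.10, 95% interval 0.0754 to 0.501, adjusted p = 1), with 20.79% of the 0 h signal left in QKI7-WT and 17.03% in QKI7-dKH.

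PILRB, a paired immunoglobulin-like receptor gene on chromosome 7, had higher signal at 8 h than at 0 h in QKI7-WT and lower signal in QKI7-dKH. Its QKI7-WT values were 10.88 and 13.34 at 0 h and 16.44 and 15.32 at 8 h. The QKI7-dKH values were 20.43 and 14.35 at 0 h and 13.2 and 12.44 at 8 h. Both QKI7-WT libraries lay below both QKI7-dKH libraries at 0 h and above them at 8 h. The difference was 0.76 (SE 0.21, 95% interval 0.317 to 1.21, adjusted p = 1), and it ran from 0.522 to 1.00 as 1 library at a time was left out. Read-through transcripts overlap the gene, so reads could be shared.

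The other higher genes were 2 non-coding RNAs and a small nucleolar RNA. FBXO22-AS1, antisense to FBXO22, gave 0.39 (SE 0.11). Its signal was 88 and 96.42 against 131 and 111.6 at 0 h, and 87.73 and 77.23 against 81.35 and 83.37 at 8 h, QKI7-WT first. The genotypes differed at 0 h and overlapped at 8 h. FBXO22, the partner gene, gave −0.15; whether the counting used strand was not given. SNHG18, a snoRNA host gene, gave 0.38 (SE 0.12), again with QKI7-dKH higher at 0 h (17.92 and 18.14 against 12.21 and 14.66) and overlap at 8 h.

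SNORA109 had the largest estimate of all genes, 2.21, with an SE of 0.72. Its replicates were far apart: 62.65 and 27.38 at 0 h and 227.8 and 245.5 at 8 h in QKI7-WT, and 140.9 and 105.4, then 263.8 and 82.11, in QKI7-dKH. Leaving out 1 library moved it between 1.38 and 3.05.

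IFIT3, an antiviral protein induced by interferon, was at the lower end. It went from 76.9 and 80.14 to 8.016 and 7.401 in QKI7-WT and from 102.3 and 97.48 to 12.74 and 15.56 in QKI7-dKH. QKI7-WT was the lower at both times, with no overlap, and by more at 8 h. The decay difference was −0.45 (SE 0.14, 95% interval −0.748 to −0.152, adjusted p = 1), and 9.82% against 14.2% of the 0 h signal was left.

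SLC25A20, the mitochondrial carnitine carrier, went from 6.601 and 7.353 to 3.77 and 3.95 in QKI7-WT and from 5.681 and 3.758 to 4.306 and 5.171 in QKI7-dKH. It stood lower at 8 h in QKI7-WT and was near its 0 h mean in QKI7-dKH. The difference was −0.73 (SE 0.20, 95% interval −1.16 to −0.310). These are low signals, and 1 library moved the value between −0.980 and −0.490.

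DNAL4, an axonemal dynein light chain gene, gave −0.48 (SE 0.14), from 19.26 and 18.43 to 12.83 and 12.88 against 14.06 and 14.88 to 14.58 and 13.64. It was higher in QKI7-WT at 0 h and lower at 8 h, in both libraries. TMSB15B, a β-thymosin gene with a near-identical copy (TMSB15A), gave −0.53 (SE 0.16), and ST3GAL4-AS1, an antisense RNA, −0.94 (SE 0.27). TMSB15B differed between the genotypes at 0 h, 21.64 and 19.17 against 14.59 and 13.22, and overlapped at 8 h. ST3GAL4-AS1 was 2.618 and 2.977 against 4.834 and 5.33 at 8 h.

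**Figure D2:**
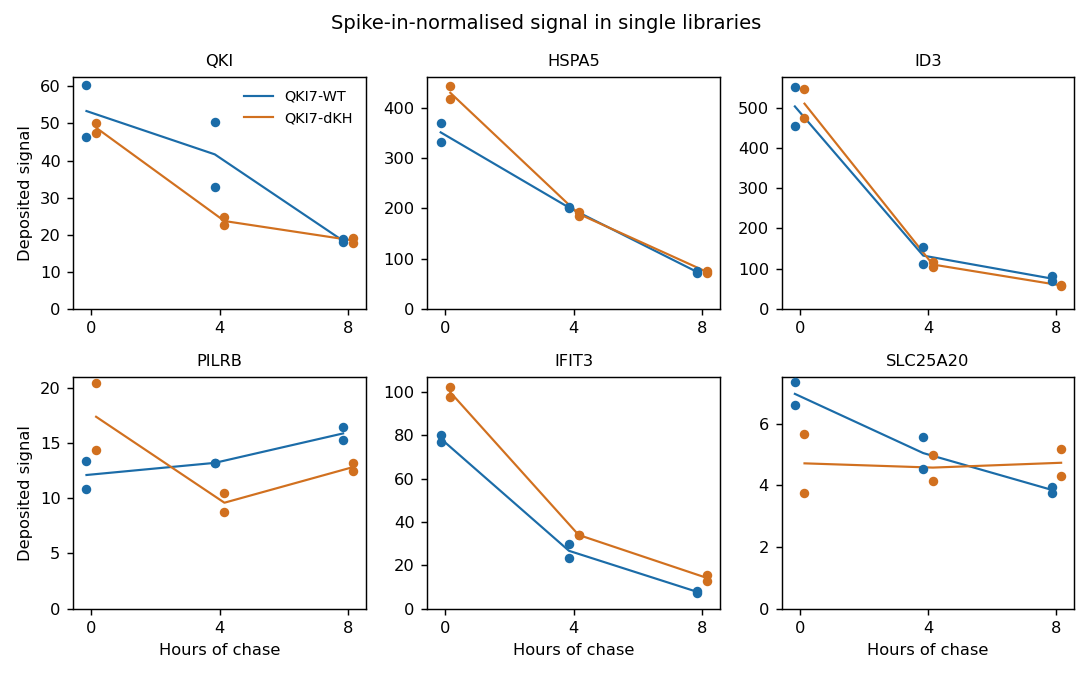
Deposited spike-in-normalised signal (y axis, linear from 0) against hours of chase (x axis) for 6 genes, with 1 point per library and lines through the group means of QKI7-WT (blue) and QKI7-dKH (orange). For HSPA5 the QKI7-dKH libraries are higher at 0 h and the groups meet at 8 h, whereas for PILRB the order of the groups is opposite at 0 h and 8 h.

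Among 38 immediate-early mRNAs and mRNAs with AU-rich elements, a class lost fast over a chase, 2 had an unadjusted p under 0.05, GADD45B above and CYR61 below. GADD45B, a growth arrest and DNA damage-inducible gene, went from 45.26 and 50.89 to 15.4 and 13.99 in QKI7-WT and from 58.1 and 55.72 to 12.04 and 14.68 in QKI7-dKH. The groups were apart at 0 h and overlapped at 8 h, and the decay difference was 0.37 (SE 0.14). ID3, an inhibitor of helix-loop-helix transcription factors, gave 0.39 (SE 0.19), from 455.3 and 552.6 to 80.78 and 69.8 against 546.5 and 475.2 to 56.42 and 59.82. ID3 overlapped at 0 h and was higher in QKI7-WT at 8 h. The list's median was −0.03.

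CYR61, a secreted matricellular protein and a target of the YAP and TAZ coactivators, had nearly all its signal lost in both genotypes. It went from 252.7 and 259.8 to 4.087 and 3.23 in QKI7-WT, or 1.43% left. In QKI7-dKH it went from 310.8 and 296.7 to 5.84 and 6.215, or 1.98% left. The decay difference was −0.35 (SE 0.13, 95% interval −0.618 to −0.0912). Of 25 YAP and TAZ targets 7 lay above the all-gene median, and the list median was −0.06. Relative to all genes it was −0.0576 on the deposited scale and −0.0416 with quantile normalisation. Library medians shift all genes alike and cannot change that value, and library totals do likewise apart from the 1 added to each signal. F3, tissue factor, was the next farthest at −0.23 (SE 0.19). Of 53 Hippo pathway components 25 lay above the all-gene median, with MOB1B at −0.24 (SE 0.27) and WWTR1, which encodes TAZ, at −0.22 (SE 0.14).

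Interferon-stimulated genes lay below the all-gene median as a list. Of 32 measured, 8 were above it and 3 had an unadjusted p under 0.05, all lower: IFIT3, OASL (−0.43) and IFITM1 (−0.46). The list median was −0.07. IFITM1, a membrane-bound restriction factor, overlapped between the genotypes at 0 h and at 8 h was 6.042 and 6.756 in QKI7-WT against 7.803 and 10.56 in QKI7-dKH.

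Cholesterol biosynthesis genes lay above the all-gene median, 27 of 30, with a median of 0.09. FDFT1 (squalene synthase) at 0.21 (SE 0.09) and HMGCS1 (HMG-CoA synthase) at 0.18 (SE 0.09) had unadjusted p under 0.05. FDFT1 went from 194.7 and 209.7 to 177.5 and 168.7 in QKI7-WT and from 264.4 and 253.7 to 190.7 and 193.3 in QKI7-dKH. Its level was lower in QKI7-WT at both times, by more at 0 h. The list had the same order, with a median QKI7-WT minus QKI7-dKH of −0.32 at 0 h and −0.23 at 8 h. All genes had −0.15 at both times. The list median relative to all genes was 0.0877 on the deposited scale, 0.0872 with quantile normalisation and 0.0893 with library totals.

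All 77 cytosolic ribosomal protein mRNAs lay above the all-gene median on the deposited scale, between 0.02 and 0.16, but 41 of 77 did so with quantile normalisation, where the list median was 0.00 above that of all genes. Among genes in 5 equal classes of mean signal, the class with the highest signal had 72.2% of its members above the all-gene median, so signal level moved with this result; its part was not tested. RPL35A, a large-subunit protein, went from 4103 and 4570 to 4041 and 3773 in QKI7-WT and from 4888 and 4603 to 3733 and 3973 in QKI7-dKH, with overlap at 8 h, and gave 0.15 (SE 0.12). The other TOP mRNAs (22 of 22), respiratory chain genes (61 of 77) and proteasome subunits (30 of 36) were likewise above the median, and with quantile normalisation their numbers were 9, 44 and 16. Of the respiratory chain, the complex I subunits NDUFA3 and NDUFC2 gave 0.27 (SE 0.16) and −0.68 (SE 0.27).

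Mitotic genes gave 41 of 45 above the all-gene median (34 with quantile normalisation), with a list median of 0.06. The farthest was CDCA3 at 0.22 (SE 0.14), a trigger of mitotic entry. Heat shock chaperones had 27 of 37 above (18 with quantile normalisation, where the list median turned to −0.01 relative to all genes), led by DNAJB1, an HSP70 co-chaperone, at 0.30 (SE 0.11). Of 37 integrated stress response genes 24 were above (17 with quantile normalisation, median likewise below that of all genes), and ATF4, the transcription factor of that response, gave 0.25 (SE 0.11). Among 41 extracellular matrix and mesenchymal genes 32 were above (24 with quantile normalisation), and COL1A1, a fibrillar collagen chain, gave 0.34 (SE 0.14). No member of any list passed.

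**Figure D3:**
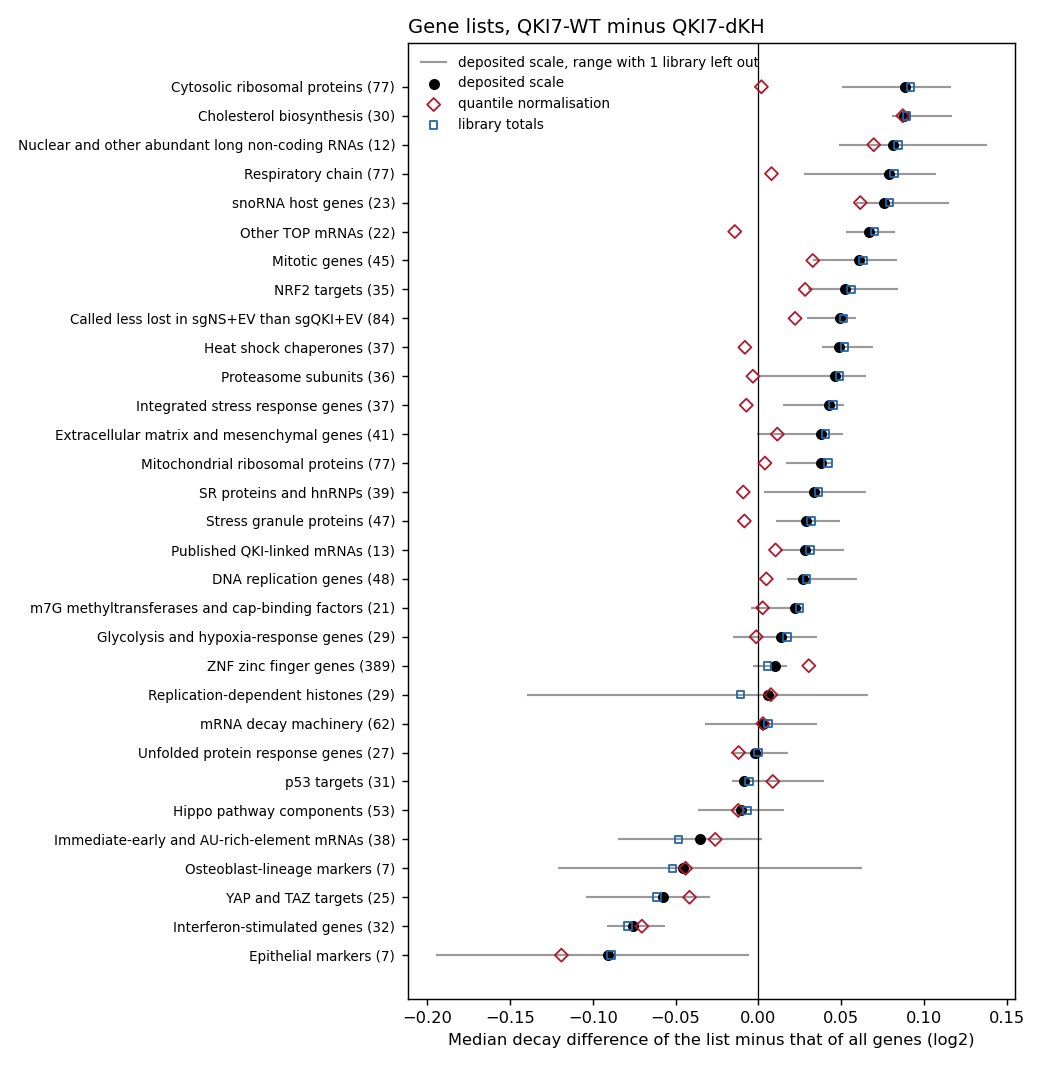
Median decay difference of each gene list minus that of all genes (x axis, log2), with the number of measured members in brackets, under 3 scalings; grey bars span the values with 1 library of the contrast left out. With quantile normalisation cholesterol biosynthesis stays near 0.09, while cytosolic ribosomal proteins move from 0.09 to 0.00 and other TOP mRNAs cross 0. Library totals shift all genes alike apart from the 1 added to each signal, so closeness under them is no check.

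The decay difference is also the genotype difference at 8 h minus that at 0 h, and level differences were called at both times. At 8 h 607 genes were lower in QKI7-WT than in QKI7-dKH (4.84%) and 6 higher (0.0478%), 4.89% in all, beside 465 lower (3.71%) and 6 higher (0.0478%) at 0 h, 3.75% in all. With 1 library left out the 8 h calls in both directions numbered 33 to 654. The libraries of the 2 times are separate. Of the genes lower at 0 h, 259 were lower at 8 h too (55.7% of the 0 h genes, 42.7% of the 8 h genes; 15 to 143 genes with 1 library left out). A value below 0 at 8 h was held by 463 of the 465, and by 90% of all genes. COL3A1, FHL1 and HTRA1 were among the genes higher at both times, named here after their values were seen. The all-gene median was −0.15 at both times, and scaling bears on the counts: at 8 h 85 higher and 146 lower with quantile normalisation, 22 and 177 with library totals, and 42 and 77 with library medians.

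MYL2, a myosin light chain gene, had such a level difference at both times; it and SUGCT were chosen after their values were seen. At 8 h MYL2 was 18.93 and 15.55 in QKI7-WT against 39.03 and 42.16 in QKI7-dKH, after 23.16 and 27.58 against 52.03 and 48.58 at 0 h. The groups were apart at both times, by −0.96 at 0 h and −1.19 at 8 h. The decay difference was −0.23 (SE 0.16, 95% interval −0.560 to 0.0997). SUGCT, a mitochondrial CoA-transferase gene, differed by −0.93 at 8 h (6.307 and 6.743 against 12.57 and 14.06) and by −1.05 at 0 h, and its decay difference was 0.12 (SE 0.16). MFAP5, a microfibril protein, SERPINB7, a serpin, and CXCL14, a chemokine, gave decay differences of −0.12, 0.19 and −0.18.

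**Figure D4:**
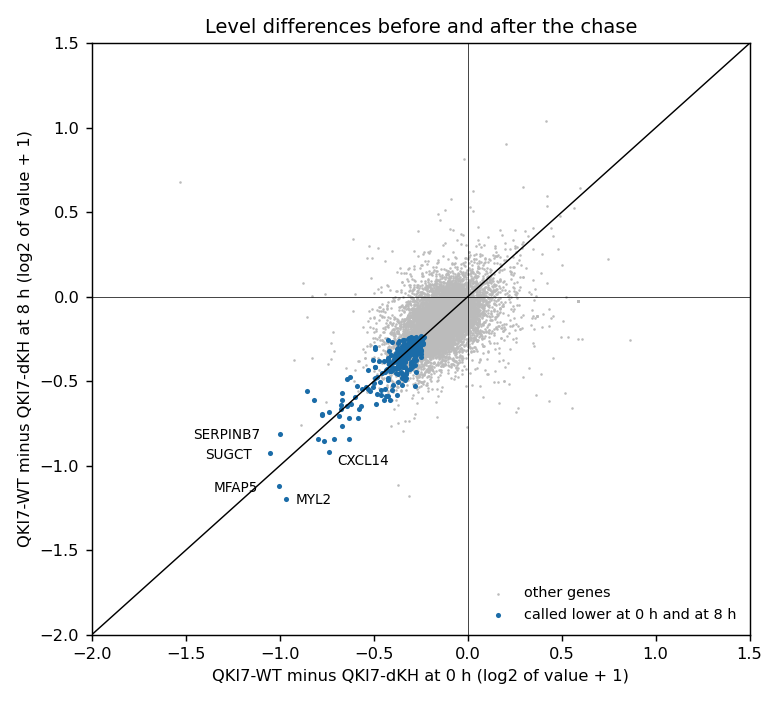
QKI7-WT minus QKI7-dKH at 0 h (x axis) and at 8 h (y axis), log2 of signal plus 1, 1 point per gene, with the line on which the decay difference is 0. The 259 genes called lower at both times (blue) lie along that line, with MYL2, MFAP5 and SUGCT at its lower end.

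The empty-vector genotypes compare the sgNS guide with the QKI guide, with no add-back construct, in 8 libraries that the add-back contrast does not use. In sgNS+EV minus sgQKI+EV, 84 genes were less lost (0.669%) and 1, POP3, was more lost (0.00797%), 0.677% in all, around an all-gene median of 0.14 that was 0.01 with quantile normalisation. That scaling left 54 genes less lost and 12 more lost. The count of 85 was 1373 from the 4 compared groups alone and 1 to 11 with any 1 of their libraries left out.

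Between the add-back genotypes those 84 genes had a median decay difference of 0.05, beside 0.50 in the empty-vector genotypes, where that value chose them. Of the 84, 63 lay above the all-gene median (75%), and of the 5888 genes in the same range of signal 57.3% did. With quantile normalisation the number was 58, and with 1 library left out it ran from 52 to 68. Across all 12547 genes the decay differences of the pairs had a Pearson r of 0.09 and a Spearman rho of 0.10, given as a description; the points share libraries within each pair. The difference between the pairs called no gene (0 of 12547, 0%; 724 genes at unadjusted p under 0.05 in limma).

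HSPA5 had the clearest value in the empty-vector pair. It went from 332.3 and 358.8 to 95.29 and 100.7 in sgNS+EV and from 349.5 and 354.5 to 55.72 and 53.82 in sgQKI+EV. The genotypes were close at 0 h and apart at 8 h, and the difference was 0.85 (SE 0.10, limma adjusted p = 5.03e-04), beside 0.29 in the add-back pair. ID3 gave 0.87 there (adjusted p = 0.0392) beside 0.39 here.

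By contrast, HIST1H4H, a histone H4 gene of a family with near-identical copies, gave 0.95 and 0.04, BMP4, a secreted growth factor, 0.74 and 0.01, and AMOTL2, an angiomotin of the Hippo pathway, 0.72 and 0.02, the empty-vector pair first. The add-back values of these 3 turn negative with library totals, yet stay above that scaling's all-gene median of −0.0503. With quantile normalisation that of BMP4 is −0.0349, below an all-gene median of −0.00178. HSPA5, DNAJB1, HIST2H2BE and HIST1H2BD were the 4 of the 84 with an unadjusted p under 0.05 in the add-back pair, and each was higher. With quantile normalisation BMP4 and AMOTL2 differed between the pairs (adjusted p = 0.0311 each).

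**Figure D5:**
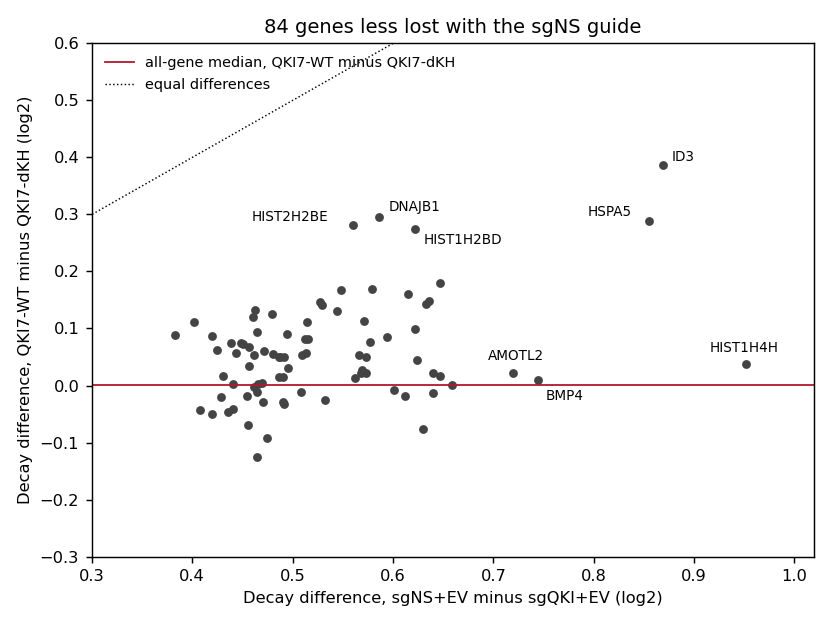
Decay difference of sgNS+EV minus sgQKI+EV (x axis, log2) and of QKI7-WT minus QKI7-dKH (y axis, log2) for the 84 genes called less lost in sgNS+EV, with the all-gene median of the latter in red. The points lie far under the dotted line of equal differences, ID3 highest at 0.39; the genes were chosen on the x values. With library totals HIST1H4H, BMP4 and AMOTL2 fall below 0 but stay above that scaling's all-gene median of −0.0503.

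The 4 h libraries split the chase into intervals whose differences had opposite signs. Over 0 h to 4 h 2004 genes were less lost in QKI7-WT (16.0%) and 8 more lost (0.0638%), around a median of 0.24. Over 4 h to 8 h 2017 were more lost (16.1%) and 3, C12orf76, POP3 and SNHG25, less lost (0.0239%), around a median of −0.23. The intervals share the 4 h libraries, and their differences add up to the 0 h to 8 h difference, whose median was 0.00176. Opposite signs of the medians thus reflect 1 offset at 4 h. There QKI7-WT minus QKI7-dKH had a median of 0.09, beside −0.15 at 0 h and at 8 h. The QKI7-WT replicates at 4 h had median signals of 20.6 and 17.9, beside 17.3 and 17.2 in QKI7-dKH. With quantile normalisation, library totals or library medians no gene was called in either interval. With 1 library left out the 0 h to 4 h count was 0 without QKI7-WT 4 h replicate 1, QKI7-WT 0 h replicate 2 or any of the QKI7-dKH libraries at 0 h and 4 h, and 5292 without QKI7-WT 4 h replicate 2. The 4 h to 8 h count was 0 without QKI7-WT 4 h replicate 1, either QKI7-dKH 4 h library or QKI7-dKH 8 h replicate 2. It was 2 without QKI7-WT 8 h replicate 2, 893 without QKI7-WT 8 h replicate 1 and 5220 without QKI7-WT 4 h replicate 2. Early minus late sets the 4 h libraries against those at 0 h and 8 h, so it restates that offset and is no separate result. Tested against each other, the early and the late difference differed for 3927 genes (31.3%), 3920 with the early value higher (31.2%) and 7 with it lower (0.0558%). That count was 0 with quantile normalisation, 0 with library totals, 1 with library medians and 0 from the compared groups alone.

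The response element was counted in annotated 3′ UTRs, on the sense strand, as ACUAAC or ACUAAU, and matches that overlap by their AC were each counted. A 3′ UTR was found for 11308 of the genes, and 34.8% of these held at least 1 element. Genes with 0, 1, 2 and 3 or more elements had median decay differences of 0.01, 0.00, −0.02 and −0.02. The median 3′ UTR length of these classes rose along with them, from 694 to 1849, 2996 and 4653 bases. In 3 equal classes of 3′ UTR length, the longest had medians of −0.01 without and −0.02 with an element, the middle 0.00 and 0.01, and the shortest 0.02 and 0.02. Of the genes with an unadjusted p under 0.05 and a 3′ UTR, 15.9% of 44 higher and 25.6% of 43 lower in QKI7-WT held an element. Their 3′ UTRs were also shorter, with medians of 679 and 652 bases beside 1138 for all genes with a 3′ UTR. A match in the annotation is not evidence of binding.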

How the data were processed

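PolyA RNA of U2OS cells was measured in 24 libraries, 2 in each of 12 groups taken from the sample titles. The authors deposited 1 table of a spike-in-normalised signal on a linear scale (that reading rests on the near-constant ERCC sums). STAR, RSEM and GRCh38 appear in the submitters' processing notes; their versions and roles, the unit before spike-in scaling and the point at which spike-in was added are not given in the sources used here; whether a shift common to most genes holds per cell is therefore unknown. Of the rows, 38 are ERCC rows, which stayed out of the fit.

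Values were taken as log2 of signal plus 1. Requiring a value of 1 or more in 2 or more libraries removed 0 genes. In limma 3.58.1 (R 4.3.3), 1 model with a mean for each of 12 groups took all 24 libraries and allowed the variance to follow the mean (12 residual and 9.00 prior degrees of freedom), and p-values were adjusted by Benjamini-Hochberg over 12547 genes, two-sided, at 0.05. The script was tested on simulated data. Percentages of signal left are ratios of group means without the added constant. 38 rows repeat another row's values.

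The genes named are METTL1, WDR4, G3BP1 and QKI, the 5 smallest p per direction since none passed, and the 2 members of each of 34 lists farthest from the all-gene median, both among genes with a mean of at least 5; others are said to be chosen after their values were seen or belong to a count. Members, lists and tests were chosen with earlier results of these data known. Alternatives were 3 other scalings (quantiles, totals, medians), a pseudocount of 0.1, other filters, a replicate term, no trend, the compared groups alone, a fold limit of 1.5, each library left out, and fits without 4 h libraries; the last, and the 8 h, both-times and early-minus-late counts, were added after the data were seen. Some genes are not reported here.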

Additional observations from a re-analysis of the deposited data

Results flagged for a closer look

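The early and the late decay difference between QKI7-WT and QKI7-dKH (0 h to 4 h minus 4 h to 8 h) differed for 3927 genes (31.3%), tested as an interaction. That contrast restates the offset of the 4 h libraries described above and is no separate result. The count was 0 with quantile normalisation, with library totals, from the compared groups alone, and without QKI7-WT 4 h replicate 1 or QKI7-dKH 4 h replicate 2, 1782 without QKI7-dKH 4 h replicate 1, 2498 without QKI7-WT 8 h replicate 2, 2492 without QKI7-dKH 0 h replicate 1, 2276 without QKI7-dKH 8 h replicate 2, 1 with library medians, and 5947 without QKI7-WT 4 h replicate 2.

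PILRB went up in each pairing of QKI7-WT libraries and down in each pairing of QKI7-dKH libraries (0.76 log2). NDUFA3 did the same by a smaller amount (0.27 log2). Its fall in QKI7-dKH was slight, from 211.4 and 199.8 to 190.8 and 199.5, and 1 pairing was nearly level. The interaction was tested for both, with adjusted p = 1 in limma.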

How the results depend on the processing

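The decay difference from 0 h to 8 h called 0 genes in every alternative run, with 91 to 358 genes at unadjusted p under 0.05. Its all-gene median ran from −0.05 to 0.06. The 0 h to 4 h count (2012) was 0 with quantile normalisation, library totals, library medians, no trend or the compared groups alone, and 0 to 5292 with 1 library left out. The 4 h to 8 h count (2020) was 0, 0, 0, 635 and 0 under the same settings, and 0 to 5220 with 1 left out. The early-minus-late count was 0, 0 and 1 under the 3 scalings, 0 from the compared groups alone and 0 to 5947 with 1 left out. The empty-vector count (85) was 54 with library totals, 2 with library medians, 3 without the trend, 1373 from the compared groups and 1 to 11 with 1 left out. The difference between the pairs called 2 genes with quantile normalisation. The 8 h count (613) was 231, 199, 119 and 395 with quantile normalisation, totals, medians and no trend, and 33 to 654 with 1 left out. The 259 genes lower at both times became 55, 28, 21, 130 and 132 with those settings and the compared groups alone, and 15 to 143 with 1 left out. The cause was not tested.

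Same-numbered deviations correlated between −0.424 and 0.12 over 6 pairs of groups. The sample titles do not say whether libraries with the same replicate number were handled together. With a replicate block 0 genes were called in the 0 h to 8 h decay difference, 2749 and 2742 in the shorter intervals and 109 in the empty-vector pair. Without it the last 3 counts were 2012, 2020 and 85, so the block raised them.

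Of 1576 alternative values of 83 named genes, 37 changed sign and 1539 kept it, and none passed. Those signs are not relative to the all-gene median, which itself moved with the scaling and with the library left out. With 1 library left out the ranges were −0.309 to 0.0687 for QKI, −0.173 to 0.241 for METTL1, −0.141 to 0.188 for WDR4, −0.0320 to 0.0670 for G3BP1, −2.31e-04 to 0.335 for CDKN1B, −0.269 to 0.0103 for EIF4E3 and −0.499 to 0.0172 for MOB1B. They were −0.135 to 0.209 for HIST1H4H, −0.0849 to 0.104 for BMP4, −0.0458 to 0.0902 for AMOTL2, −0.379 to 0.604 for POP3, −0.250 to 0.0161 for MFAP5 and −0.00473 to 0.387 for SERPINB7. With library totals METTL1 was −0.0177, WDR4 −0.0255, G3BP1 −0.0315, HIST1H4H −0.0157, BMP4 −0.0405 and AMOTL2 −0.0318, each above that scaling's all-gene median of −0.0503. With quantile normalisation G3BP1 was −0.0855 and BMP4 −0.0349, both below an all-gene median of −0.00178. Depth is unknown, and 2 libraries per group limit what could be called.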

Other observations

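Small nuclear and nucleolar RNA rows, a class without the polyA tails of mRNA, were the most scattered. Of 21 rows 4 lay above the all-gene median, and the list median was −0.49, ranging from −0.749 to −0.106 relative to all genes with 1 library left out. RNU2-1, the U2 spliceosomal RNA, went from 97.41 and 78.77 to 97.19 and 77.09 in QKI7-WT and from 71.66 and 31.69 to 87.6 and 122.3 in QKI7-dKH (−1.12, SE 0.42). Some of these rows repeat each other's values.

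NEAT1, the scaffold RNA of paraspeckles, had higher signal at 8 h than at 0 h in each library of both genotypes, from 68.69 and 66.53 to 90.19 and 85.49 in QKI7-WT and from 76.82 and 77.33 to 86.39 and 92.12 in QKI7-dKH (decay difference 0.16, SE 0.08). Of 29 replication-dependent histone genes 15 lay above the all-gene median, 2 had an unadjusted p under 0.05 above it and 2 below it, and the list median turned from 0.01 above that of all genes to −0.01 with library totals.

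Across 38 ERCC rows, where no cellular decay occurs, the same contrast had a median of 0.00 and an SD of 0.403. The 12 rows with a mean of at least 60 lay between −0.144 and 0.142. The signal was scaled to ERCC RNA, so a centre near 0 follows from that scaling and is no check on it.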
